A study of Homo sapiens with 12 samples.

Results

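AP1M2, DAPP1, MACC1 and MPZL2 were 4 genes without a read in MCFNeoT, a breast epithelial line, that were read in each of the 3 other lines of the same family. They were selected on 2 measured values among 29744 gene rows, 0 counts in all NeoT libraries and a mean of at least 10 CPM (counts scaled to library size) in each of T1, CA1 and A10. The values that chose them are given below as a description and were not tested. The rule itself was met by 12 genes, of which the remaining 8 are described after the members. All 4 members were among the 14417 genes that passed a filter on low counts.

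RNA was sequenced from 4 related human breast lines, called triple-negative in the design, with 3 biological replicate libraries each, to judge a preparation that yields RNA beside DNA and peptides. NeoT is MCFNeoT, a derivative of MCF10A that carries a mutant HRAS and stands for benign hyperplasia. T1 is MCFT1, named atypical hyperplasia, and CA1 is MCFCA1, named invasive cancer. Both descend from the HRAS-bearing line through growth as xenografts. A10 is MCF10A, the immortalised mammary parent, which forms no tumours. NeoT, T1 and CA1 therefore share the HRAS transgene. Whether a line is 1 clone, and whether its replicates are separate cultures, are not given in the sources used here, so p-values measure the spread between these libraries only.

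Epithelial cells sort membrane proteins to their basal and lateral faces, adhere through junctional proteins and read growth factors and membrane lipids through receptors and adaptors. AP1M2 encodes the mu subunit that turns the clathrin adaptor AP-1 into its epithelial form, AP-1B, which sorts proteins to the basolateral membrane. DAPP1, also called Bam32, is an adaptor with an SH2 and a PH domain that binds phosphoinositides made by PI3K and is best known from B cells. MACC1 is known in colon cancer as a regulator of the receptor tyrosine kinase gene MET and is a relative of the endocytic adaptor gene SH3BP4. MPZL2, also called EVA1, is an immunoglobulin-fold adhesion protein of epithelia from the myelin protein zero family.

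RefSeq promoter sequences (GRCh38.p14) matched 3 of the 4 members by symbol. They are shown because the E-box CAGGTG, which reads CACCTG on the opposite strand, is the hexamer that the repressors ZEB1 and SNAI2 are known to bind, and the genes of both repressors were measured here. Each sequence holds the 250 bases before the annotated start of the gene, 5′ to 3′ on the gene's own strand, and capitals mark every match to the E-box on either strand. AP1M2 lies at chr19:10587313-10587562 on the minus strand, DAPP1 at chr4:99816577-99816826 on the plus strand and MACC1 at chr7:20217385-20217634 on the minus strand.
AP1M2: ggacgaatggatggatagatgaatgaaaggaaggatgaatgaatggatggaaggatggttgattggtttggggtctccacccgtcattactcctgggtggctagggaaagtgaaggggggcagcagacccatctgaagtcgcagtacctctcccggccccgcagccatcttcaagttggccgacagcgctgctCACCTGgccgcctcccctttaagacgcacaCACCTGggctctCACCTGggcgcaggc
DAPP1: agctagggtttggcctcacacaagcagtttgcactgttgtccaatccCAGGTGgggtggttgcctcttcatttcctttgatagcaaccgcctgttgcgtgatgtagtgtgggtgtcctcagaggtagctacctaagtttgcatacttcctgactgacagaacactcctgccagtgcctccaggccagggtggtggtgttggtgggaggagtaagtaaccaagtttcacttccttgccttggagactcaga
MACC1: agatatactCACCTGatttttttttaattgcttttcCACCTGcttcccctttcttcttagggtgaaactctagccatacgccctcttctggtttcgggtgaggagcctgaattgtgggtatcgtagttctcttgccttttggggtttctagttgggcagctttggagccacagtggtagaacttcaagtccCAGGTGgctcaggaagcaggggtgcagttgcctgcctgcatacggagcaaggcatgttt

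The AP1M2 window held 3 matches, whose first bases lay 57, 27 and 15 bases before the start. The MACC1 window also held 3, beginning 241, 214 and 59 bases before the start, and the DAPP1 window held 1, beginning 203 bases before it. Among 35116 RefSeq promoter windows of the same length, 17.5% held at least 1 match and 0.464% held at least 3. Of all 12 genes that met the rule, 10 had an entry and 4 held at least 1 match, the fourth being EPHA1. The Grainyhead motif AACCGGTT and the motif TGANTCA of the transcription factor AP-1, which is unrelated to the adaptor of that name, were searched on both strands too, and neither was in these 3 windows. They occurred in 0.117% and 6.57% of all promoter windows. GC content was 58.0% for AP1M2, 52.4% for DAPP1 and 49.2% for MACC1. A match describes letters only and shows no binding.

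Library totals ran from 18032399 to 35730423 counts. Pearson's r on log2 CPM was at least 0.978 between libraries of a line and at most 0.905 between lines. NeoT libraries varied most among themselves, with a biological coefficient of variation of 16.0% against 6.38% to 8.60% in the other lines. T1 replicate 1 stood apart by cytoplasmic rRNA, which took 7.76% of its counts and 0.954% to 2.18% of those of the other libraries. Without this library and NeoT replicate 3, a pair chosen after seeing the data, no called change of a member lost its call. Levels below are CPM scaled by TMM, as mean ± SD over 3 libraries (n = 3), and are compared between lines but not between genes, since gene lengths were not used. In bulk RNA, fewer cells of a type and less RNA per cell cannot be told apart.

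AP1M2, the epithelial AP-1B subunit (GRCh38 chr19:10572671-10587312, minus strand), was highest in T1 and CA1. It had 0 counts in NeoT replicates 1, 2 and 3, against 143, 148 and 145 CPM in T1, 135, 142 and 142 CPM in CA1 and 31.3, 38.9 and 33.6 CPM in A10. The NeoT libraries were all empty, the T1 and CA1 libraries were all high, and each A10 library lay between these and NeoT. These levels rest on 3544 to 4664 counts a library in T1, 2399 to 3393 in CA1 and 931 to 1245 in A10. Set against a limit of 3 counts over the NeoT libraries, which is 0.0474 CPM, AP1M2 was at least 3068-fold higher in T1, at least 2950-fold higher in CA1 and at least 731-fold higher in A10 than in NeoT.

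DAPP1, the PI3K lipid adaptor (chr4:99816827-99872333, plus strand), varied least among the 3 lines that express it, by 1.45-fold between the highest and the lowest mean, MPZL2 being next with 1.87-fold. It had 0 counts in each NeoT library, against 31.0, 35.6 and 36.1 CPM in T1, 23.5, 26.3 and 25.2 CPM in CA1 and 22.3, 24.7 and 24.1 CPM in A10. All T1 libraries lay above all others, and the CA1 and A10 libraries overlapped. The bounds over NeoT were at least 723-fold in T1, 528-fold in CA1 and 500.3-fold in A10.

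MACC1, the MET regulator (chr7:20134655-20217384, minus strand), varied most of the members, with a ratio of 5.70 between its highest and lowest mean outside NeoT. It had 0 counts in each NeoT library, against 62.0, 62.0 and 63.1 CPM in T1, 25.7, 27.8 and 30.1 CPM in CA1 and 12.4, 10.1 and 10.3 CPM in A10. The 3 expressing lines formed separate steps with no overlap, T1 above CA1 above A10. MACC1 was at least 1317-fold higher in T1, 588-fold higher in CA1 and 231-fold higher in A10 than in NeoT. Its A10 mean of 10.95 ± 1.27 CPM was the member value nearest to the 10 CPM of the rule. The antisense gene MACC1-AS1, which overlaps it, had 0 counts in all 12 libraries.

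MPZL2, the adhesion gene (chr11:118253416-118264297), was the member that was highest in A10. It had 0 counts in each NeoT library, against 69.7, 70.2 and 74.1 CPM in T1, 67.2, 60.4 and 69.4 CPM in CA1 and 135, 113 and 121 CPM in A10. Every A10 library exceeded every T1 and CA1 library, and each T1 library lay just above the highest CA1 library. The bounds over NeoT were at least 1506-fold in T1, 1386-fold in CA1 and 2599-fold in A10, with up to 5363 counts in an A10 library and none in NeoT.

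**Figure D1:**
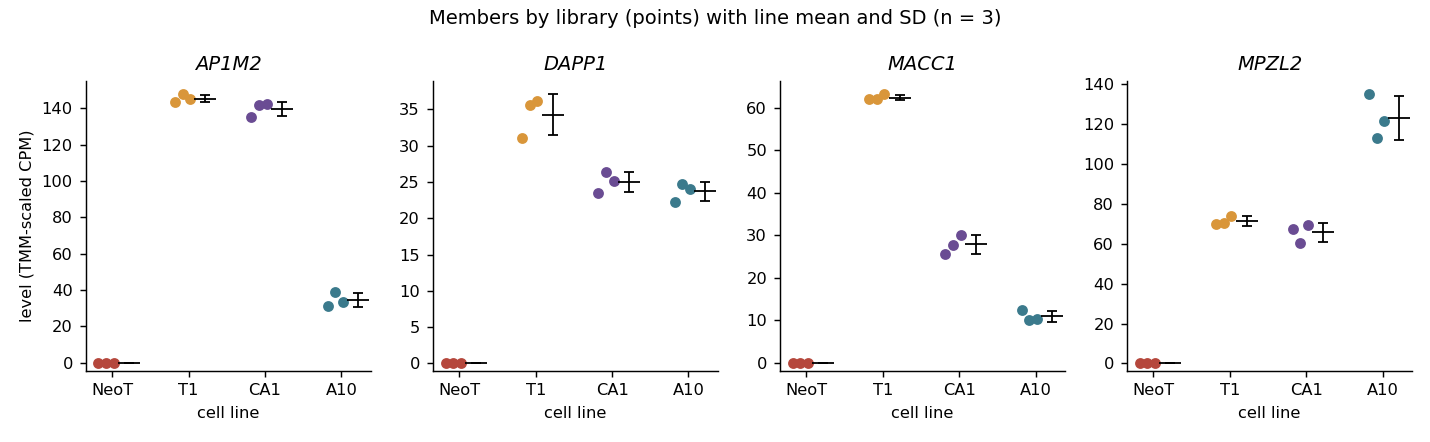
TMM-scaled CPM (linear axis) of each member in the 12 libraries, by line; points are libraries and bars the line mean ± SD (n = 3). All NeoT points sit at 0, AP1M2 and MACC1 peak in T1 at 145 and 62.4 CPM, and MPZL2 peaks in A10 at 123 CPM.

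The comparisons that follow test what the rule left free, namely how the members differed among the 3 lines that express them, since the rule set only a floor of 10 CPM there. In T1 against A10, from which it descends through the HRAS-bearing line, AP1M2, DAPP1 and MACC1 rose and MPZL2 fell, each past an adjusted p of 0.05 (edgeR quasi-likelihood test, two-sided, Benjamini-Hochberg over all genes tested). So 4 of 4 members were called, where 51.9% of all genes tested were called in this comparison. MACC1 averaged 62.4 ± 0.622 CPM in T1 and 10.95 ± 1.27 CPM in A10, a log2 change of 2.50 ± 0.107 (SE), 5.67-fold (95% interval 4.84 to 6.63, edgeR adjusted p = 5.93e-12). AP1M2 averaged 145 ± 2.12 CPM in T1 and 34.6 ± 3.89 CPM in A10 and was 4.21-fold higher (3.73 to 4.75, edgeR adjusted p = 2.16e-12). These are large changes for this comparison: 7.48% of tested genes changed at least as much as MACC1 and 9.56% at least as much as AP1M2.

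DAPP1 averaged 34.3 ± 2.81 CPM in T1 and 23.7 ± 1.25 CPM in A10 and was 1.45-fold higher (1.25 to 1.68, edgeR adjusted p = 0.000311). MPZL2 averaged 71.3 ± 2.42 CPM in T1 and 123 ± 10.96 CPM in A10, 1.73-fold lower in T1 (ratio 0.579, 0.513 to 0.654, edgeR adjusted p = 4.91e-07). Changes as large as theirs were common, at 39.98% of tested genes for DAPP1 and 28.6% for MPZL2, and the median size of change over all genes was 1.31-fold. No library of T1 overlapped a library of A10 for any of the 4 members.

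In CA1 against A10, AP1M2 and MACC1 rose and MPZL2 fell, and the difference in DAPP1 missed the threshold. This gives 3 of 4 members called, a share close to the 70.9% of all genes tested that were called. AP1M2 averaged 139.7 ± 4.0 CPM in CA1 and 34.6 ± 3.89 CPM in A10 and was 4.05-fold higher (3.59 to 4.57, edgeR adjusted p = 1.35e-12). MACC1 averaged 27.9 ± 2.20 CPM in CA1 and 10.95 ± 1.27 CPM in A10 and was 2.53-fold higher (2.16 to 2.97, edgeR adjusted p = 8.49e-09). MPZL2 averaged 65.7 ± 4.69 CPM in CA1 and 123 ± 10.96 CPM in A10, 1.88-fold lower in CA1 (edgeR adjusted p = 4.73e-08). DAPP1 averaged 25.0 ± 1.40 CPM in CA1 and 23.7 ± 1.25 CPM in A10, a ratio of 1.06 whose interval of 0.909 to 1.23 includes no change (edgeR adjusted p = 0.495). The T1 and CA1 comparisons with A10 share the A10 libraries, so the same A10 values stand behind both.

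In CA1 against T1, MACC1 and DAPP1 fell, and AP1M2 and MPZL2 did not pass the test. So 2 of 4 members were called, no larger a share than the 62.2% of all genes tested. MACC1 was 2.24-fold lower in CA1 than in T1 (27.9 ± 2.20 against 62.4 ± 0.622 CPM, edgeR adjusted p = 4.57e-08). DAPP1 was 1.37-fold lower in CA1 than in T1 (25.0 ± 1.40 against 34.3 ± 2.81 CPM, edgeR adjusted p = 0.0011). For AP1M2 the ratio of CA1 to T1 was 0.962 with an interval of 0.858 to 1.08 (edgeR adjusted p = 0.55), and for MPZL2 the interval was 0.814 to 1.04 (edgeR adjusted p = 0.224). The libraries of both genes did not overlap between CA1 and T1. This comparison uses the same T1 and CA1 libraries as the comparisons with A10.

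**Figure D2:**
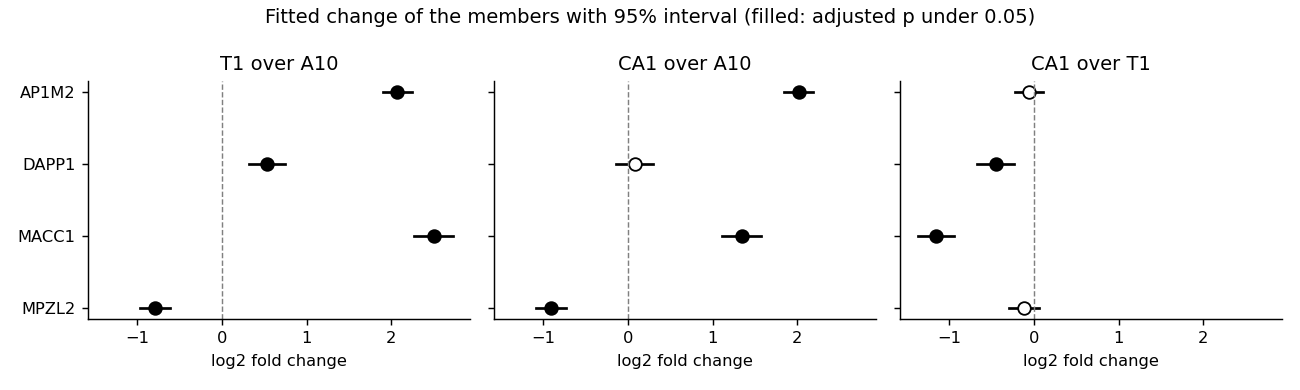
Fitted log2 fold change of each member with its 95% interval in T1 over A10, CA1 over A10 and CA1 over T1; filled points have an edgeR adjusted p under 0.05. AP1M2 stands near 2 in both comparisons with A10 (2.07 and 2.02) and at -0.06 in CA1 over T1, while MPZL2 is below 0 in the comparisons with A10.

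Genes that met the numeric rule without being among the 4 members were KLK5, MIR205HG, TP63, SH3PXD2A-AS1, MUC16, SCEL, EPHA1 and RNF43. Strand use in counting is not given in the sources used here, so reads of the antisense gene SH3PXD2A-AS1 cannot be told from those of its partner. KLK5, a skin kallikrein protease, had means of 746.5 CPM in T1, 216 CPM in CA1 and 40.9 CPM in A10. TP63, the basal epithelial transcription factor, had 41.8 CPM in T1, 27.1 CPM in CA1 and 106.7 CPM in A10. The steps of KLK5 ran in the order of MACC1, T1 above CA1 above A10, and TP63 was highest in A10 like MPZL2. MUC16, the mucin known as CA125, was high in T1 at 174 CPM, with 15.4 CPM in CA1 and 21.1 CPM in A10, and MIR205HG, the host gene of miR-205, was highest in CA1 at 172 CPM. SCEL, which encodes the cornified envelope protein sciellin, had 87.2 CPM in T1, 67.6 CPM in CA1 and 13.2 CPM in A10. EPHA1, an ephrin receptor, reached 22.7 CPM in T1, and RNF43, a ubiquitin ligase that limits WNT signalling, varied by only 1.19-fold between its highest and lowest mean. So the pattern of 0 in NeoT covered genes whose levels elsewhere differed by up to 18.2-fold between lines (KLK5).

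Just outside the rule, 7 genes had 1 to 3 counts over the NeoT libraries with at least 10 CPM in each other line. Those with the highest lowest mean were PNLIPRP3 with 2 counts, ANXA8L1, FAT2 and CBLC with 3 counts each, and GPR110 with 1 count. ANXA8L1 is nearly identical to ANXA8, so its count is uncertain. Another 3 had 0 counts in NeoT and a lowest line mean between 7 and 10 CPM, namely KDELC2 at 8.97 CPM, SPRR1B at 8.48 CPM and KLK10 at 7.28 CPM. Of 8093 genes with at least 10 CPM in T1, CA1 and A10, 69 stood at up to 1 CPM in NeoT. The same rule turned on each other line found 0 genes absent only in T1, 4 absent only in CA1 and 1 absent only in A10, beside 12 for NeoT.

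**Figure D3:**
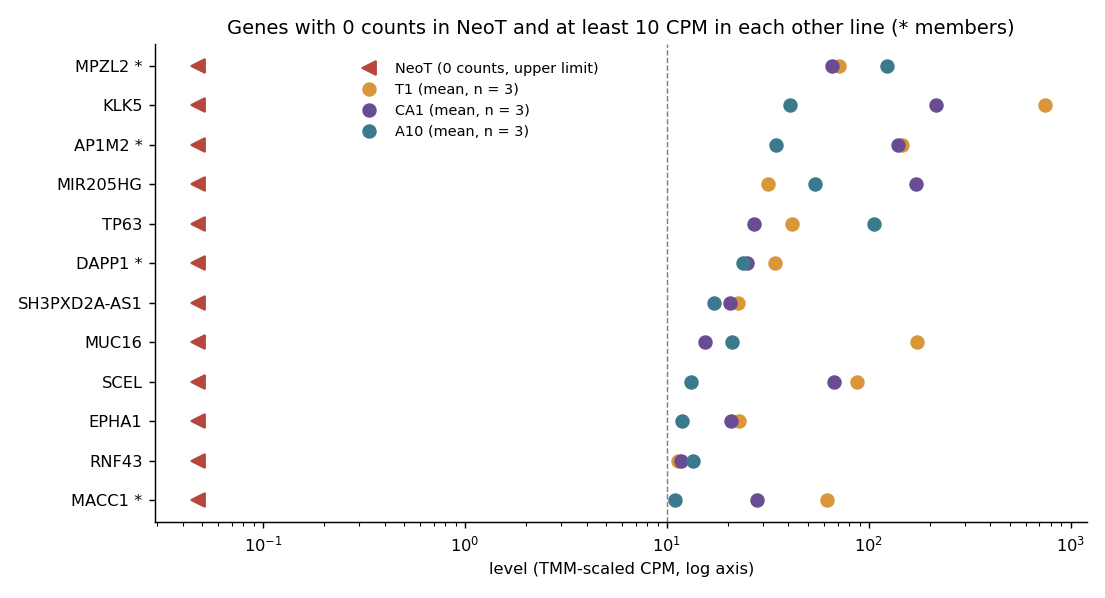
Mean TMM-scaled CPM (log axis, n = 3) in T1, CA1 and A10 of the 12 genes that met the rule, with the NeoT limit of 0.0474 CPM as a triangle and the 10 CPM of the rule as a dashed line; asterisks mark the members. MACC1 lies nearest the dashed line, at 10.95 CPM in A10, and the lowest mean of MPZL2, 65.7 CPM, is the highest of the 12.

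Across the 12 libraries the log2 levels of any 2 members correlated with an r from 0.953 (MPZL2 and MACC1) to 0.994 (MACC1 and AP1M2). These values describe 4 groups of 3 libraries and are carried by the NeoT zeros that the rule required. Among the genes most like AP1M2 were ANXA3 (r = 0.9993), FXYD3, ANKRD22 and KRT15, all lowest in NeoT. ANXA3, an annexin, averaged 5.04 CPM in NeoT, 363 CPM in T1, 393 CPM in CA1 and 162 CPM in A10. KRT15, a basal keratin, averaged 1.08 CPM in NeoT, 5110.3 CPM in T1, 6263 CPM in CA1 and 804 CPM in A10. Both thus shared the order of AP1M2 with NeoT far below A10, and A10 below the later lines.

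The genes most like DAPP1 were SH3PXD2A-AS1 (r = 0.9989), LIMK2, MYO1D, KRT17, which has close pseudogene copies, and B4GALT5. LIMK2, a kinase that regulates cofilin, averaged 16.0 CPM in NeoT, 138 CPM in T1, 117 CPM in CA1 and 118 CPM in A10. KLK5 (r = 0.998), CASP14, GPR110, FUT3 and TES were most like MACC1. CASP14, a caspase of cornifying skin, had 0 counts in NeoT and averaged 13.5 CPM in T1, 5.93 CPM in CA1 and 2.60 CPM in A10. CDH3 (r = 0.9983), KIAA0040, DAAM1, RNF43 and RNASE7 were most like MPZL2. CDH3, which encodes P-cadherin, averaged 11.5 CPM in NeoT, 359 CPM in T1, 313 CPM in CA1 and 527 CPM in A10. Such profiles were not rare: of 14416 genes, 428 for AP1M2, 413 for DAPP1, 378 for MACC1 and 367 for MPZL2 had an r over 0.95.

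The next comparisons set NeoT against A10 for genes that act with each member, from lists that do not hold the members. Across all genes tested, 70.4% were called between NeoT and A10, 33.7% higher and 36.7% lower, with a median log2 change of -0.04. List medians are log2 changes over the genes tested. AP1M2 replaces its close relative AP1M1, the ubiquitous mu subunit, in the same adaptor. Of 10 subunits of AP-1 and clathrin, 3 rose and 5 fell in NeoT, with a median of -0.22. AP1M1 averaged 72.6 ± 6.53 CPM in NeoT and 71.3 ± 1.95 CPM in A10 (edgeR adjusted p = 0.765), with T1 at 43.4 ± 1.84 CPM and CA1 at 38.5 ± 0.672 CPM. AP1M1 was 1.64-fold lower in T1 than in A10 (edgeR adjusted p = 2.75e-07) and 1.85-fold lower in CA1 than in A10 (8.3e-09), the lines in which AP1M2 was higher than in A10.

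Of the small sigma subunits, AP1S3 fell 9.28-fold in NeoT, to 6.64 ± 2.36 CPM against 62.3 ± 5.41 CPM in A10 (edgeR adjusted p = 4.1e-12). AP1S2 rose 2.13-fold, with 28.3 ± 5.71 CPM in NeoT and 13.2 ± 1.08 CPM in A10 (5.22e-07). AP1S3 was also higher in T1 (119 CPM, 1.91-fold) and CA1 (140.3 CPM, 2.25-fold) than in A10, as AP1M2 was. The clathrin light chain gene CLTB fell 4.81-fold in NeoT (81.7 ± 18.8 against 394 ± 20.9 CPM, edgeR adjusted p = 1.49e-09). AP1G2, a gamma subunit, fell 1.43-fold (edgeR adjusted p = 6.51e-06). Among mu subunits of the other adaptors 1 rose and 3 fell of 5, with a median of -0.42, and AP5M1 fell most, by 1.88-fold.

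Basolateral sorting partners and cargo, a list of 16 genes, had 5 higher and 10 lower in NeoT, with a median of -0.35. The adenovirus receptor gene CXADR, whose product is a junctional cargo of AP-1B, fell 23.5-fold to 0.878 ± 0.258 CPM in NeoT, against 20.2 ± 2.64 CPM in A10 (edgeR adjusted p = 3.47e-13). The transferrin receptor gene TFRC fell 2.77-fold and RAB8A, a GTPase of basolateral transport, fell 1.91-fold, while the exocyst gene EXOC3 rose 1.68-fold.

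Around DAPP1, PI3K lipid signalling genes moved both ways. Of 22 listed genes 21 were tested, 7 rose and 9 fell in NeoT, with a median of -0.18. The regulatory subunit gene PIK3R1 rose 4.53-fold (555 ± 96.8 CPM in NeoT against 122 ± 3.44 CPM in A10, edgeR adjusted p = 3.62e-13), and its relative PIK3R3 fell 6.75-fold (6.03 ± 1.08 against 40.4 ± 0.926 CPM, 2.94e-13). INPP5D, which encodes the lipid phosphatase SHIP1, fell 3.12-fold, and the phospholipase gene PLCG1 rose 2.80-fold. PLEKHA1 and PLEKHA2 encode TAPP1 and TAPP2, whose PH domains bind the same kind of lipid as that of DAPP1. Chosen for this likeness after values were seen, they stayed expressed in NeoT, PLEKHA1 at 21.6 ± 2.79 CPM in NeoT against 50.7 ± 3.83 CPM in A10 (2.36-fold lower, edgeR adjusted p = 2.27e-09) and PLEKHA2 at 51.2 ± 6.25 against 84.8 ± 3.02 CPM (1.66-fold lower). BTK, the B cell kinase, had 0 counts in NeoT, CA1 and A10.

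Around MACC1, most tested genes of the MET axis fell in NeoT. Of 12 listed genes 9 were tested, 2 rose and 7 fell in NeoT, with a median of -1.10. ST14, which encodes the protease matriptase that activates HGF, fell 134.6-fold to 2.33 ± 0.975 CPM in NeoT, against 312 ± 24.0 CPM in A10 (edgeR adjusted p = 1.99e-15). The matriptase inhibitor genes SPINT1 and SPINT2 fell 7.58-fold and 4.68-fold, and MST1R, which encodes the MET-related receptor RON, fell 85.9-fold to 0.435 ± 0.358 CPM against 38.4 ± 1.85 CPM in A10 (3.71e-15). MET itself differed little: it averaged 157 ± 28.1 CPM in NeoT, where MACC1 had no count, and 183 ± 12.2 CPM in A10, 1.17-fold lower in NeoT (edgeR adjusted p = 0.0373). That call was lost with RLE factors, with DESeq2, with the compared libraries alone, and without A10 replicate 1 or 2 or NeoT replicate 1 or 2 (adjusted p from 0.0511 to 0.181). MET was 2.30-fold higher in CA1 than in A10 (420.4 ± 7.77 CPM, edgeR adjusted p = 1.49e-09) and averaged 207 ± 6.99 CPM in T1, the line with the most MACC1 (1.13-fold A10, edgeR adjusted p = 0.108, but 0.00438 without NeoT replicate 3 and 0.0128 with only T1 and A10 in the fit). MET had its highest level in CA1 and MACC1 in T1. The 0 counts of MACC1 in NeoT were set by the rule, and the part of MACC1 in the level of MET was not tested. HGF, the ligand of MET, had 0 counts in all 4 lines, and SH3BP4, the relative of MACC1, was 1.21-fold higher in NeoT than in A10.

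Across the list around MPZL2, 11 of 16 adhesion genes were tested, and 3 rose and 7 fell in NeoT, with a median of -1.28. PVRL1, which encodes nectin-1, fell 31.1-fold to 10.1 ± 0.590 CPM in NeoT, against 315 ± 25.0 CPM in A10 (edgeR adjusted p = 8.33e-19). F11R, which encodes the junctional adhesion molecule JAM-A, fell 5.48-fold, and CLMP, a junctional relative of CXADR, rose 4.50-fold. The closest relatives of MPZL2 stayed detectable in NeoT. MPZL1 averaged 149 ± 6.83 CPM in NeoT, 214 ± 10.65 CPM in T1, 94.4 ± 1.41 CPM in CA1 and 361.5 ± 4.52 CPM in A10, so like MPZL2 it was highest in A10. MPZL3 averaged 5.23 ± 0.795 CPM in NeoT and 9.91 ± 2.25 CPM in A10 (1.92-fold lower, edgeR adjusted p = 3.19e-05), and reached 25.0 ± 1.03 CPM in T1 and 21.05 ± 0.745 CPM in CA1. It was 2.50-fold and 2.11-fold higher there than in A10 (edgeR), where MPZL2 was lower.

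**Figure D4:**
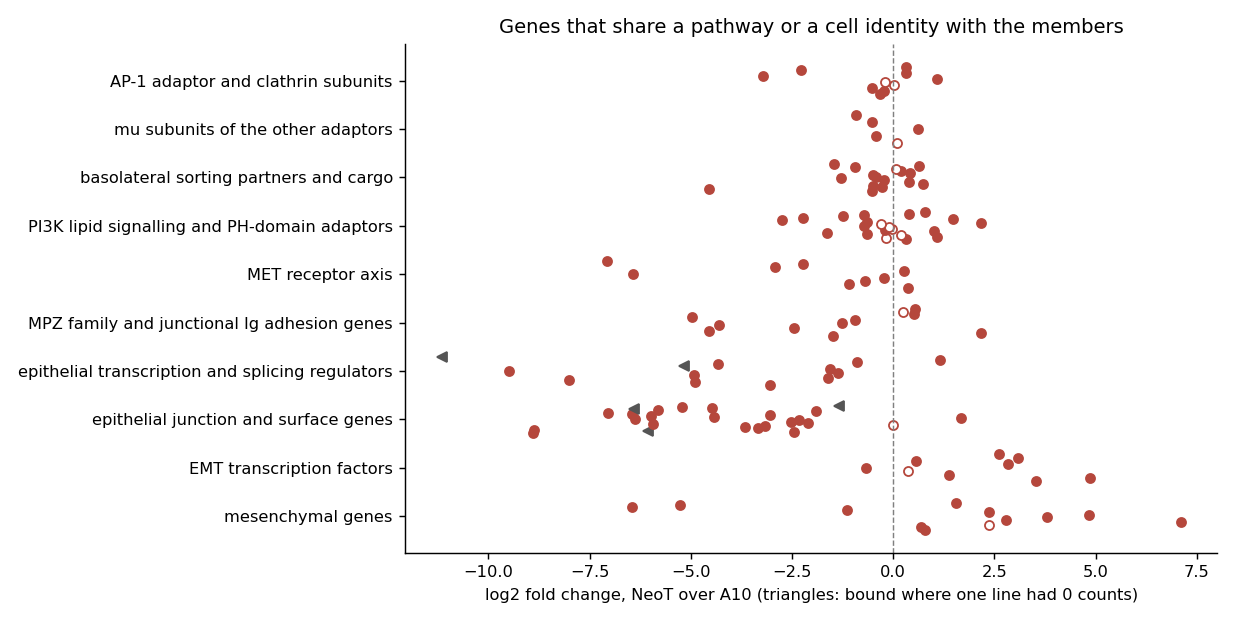
Log2 fold change in NeoT over A10 of each tested gene in 10 lists; filled points have an edgeR adjusted p under 0.05, open points do not, and triangles are bounds for genes with 0 counts in NeoT or A10. The lists of adaptor and PI3K genes lie on both sides of 0, the epithelial lists lie mostly below it, and the lists of EMT transcription factors and mesenchymal genes mostly above it.

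Junction, keratin and regulator genes of epithelia were set beside the members, which are named epithelial genes. The absence of the members in NeoT was fixed by the rule, so a like direction there cannot test that name. Of 25 epithelial junction and surface genes, 1 rose and 23 fell in NeoT against A10, with a median of -4.47, or -4.43 with genes at 0 counts taken at their bound. The tight junction gene CLDN1 fell 467-fold, to 0.573 ± 0.339 CPM in NeoT against 282 ± 13.5 CPM in A10 (edgeR adjusted p = 3.18e-19). MAL2, a transcytosis gene, fell 63.4-fold, to 9.5 ± 0.652 CPM in NeoT against 604.6 ± 58.4 CPM in A10. The 1 gene that rose was the simple epithelial keratin KRT8 (473 ± 45.2 CPM in NeoT against 147 ± 13.0 CPM in A10, 3.22-fold), chosen for this after values were seen. In T1 against A10, 21 of the 25 rose and 1 fell, beside 26.0% and 25.9% of all genes, and in CA1 against A10, 14 rose and 3 fell, beside 34.4% and 36.5%. In T1 against NeoT all 25 were higher, as they were in CA1 against NeoT (edgeR), where 35.0% and 33.8% of all genes tested were higher. So MPZL2, lower in T1 and CA1 than in A10, differed in direction from most of this list there.

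Of 14 tested epithelial transcription and splicing regulators, 1 rose and 12 fell in NeoT against A10, with a median of -3.69. With genes at 0 counts in NeoT taken at their bound and GRHL2, at 0 in both lines, left out, the median was -4.33. TP63, which met the numeric rule, was among the 12 that fell. The splicing regulator ESRP1 fell 259-fold, to 0.188 ± 0.197 CPM in NeoT against 54.3 ± 3.82 CPM in A10 (edgeR adjusted p = 8.24e-17). ELF3, an epithelial ETS factor, fell 29.98-fold. GRHL2, a Grainyhead factor, had 0 counts in both NeoT and A10, against 59.0 ± 2.59 CPM in T1 and 39.3 ± 3.25 CPM in CA1. Its relative GRHL3 averaged 16.7 CPM in NeoT, 14.8 CPM in T1, 1.34 CPM in CA1 and 43.0 CPM in A10. The part of either factor in the members' levels was not tested. ESRP1 and ELF3, which were 4.26-fold and 4.53-fold higher in T1 than in A10, moved there as AP1M2 did (4.21-fold).

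Of 9 tested EMT transcription factors, 7 rose and 1 fell in NeoT against A10, with a median of 2.61. ZEB1, which binds E-boxes like those shown above, averaged 34.5 ± 3.49 CPM in NeoT, 0.453 ± 0.254 CPM in T1, 0.394 ± 0.192 CPM in CA1 and 4.07 ± 0.464 CPM in A10. It was 8.43-fold higher in NeoT than in A10 (edgeR adjusted p = 1.24e-10). Among T1, CA1 and A10, ZEB1 was highest in A10, where AP1M2 and MACC1 were lowest and MPZL2 highest. DAPP1 did not differ past the threshold between CA1 and A10 (edgeR adjusted p = 0.495), and the 0 counts of the members in NeoT were set by the rule. TWIST1 rose 7.13-fold (213 ± 26.4 CPM in NeoT, 29.9 ± 1.51 CPM in A10, edgeR adjusted p = 3.81e-14), SNAI2 rose 2.60-fold and SNAI1 rose 29.0-fold, to 10.4 CPM in NeoT against 0.364 CPM in A10. In T1 against A10 none of these 9 rose and 5 fell, with a median of -0.88, and in CA1 against A10, 2 rose and 7 fell, with a median of -2.11. Of 12 tested mesenchymal genes, 8 rose and 3 fell in NeoT, the fibronectin gene FN1 by 13.8-fold upward and SPARC by 87.0-fold downward. Their part in the absence of the members was not tested.

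Markers of other cell types were read because DAPP1 is known from B cells. PTPRC, MS4A1, CD3D and CD3E, which mark leukocytes and lymphoid cells, had 0 counts in all 12 libraries. The B cell receptor gene CD79A averaged 0.327 CPM in NeoT, 0.0409 CPM in T1, 0.393 CPM in CA1 and 0.00838 CPM in A10, and CD79B stayed at or below 0.102 CPM in each line. The summed level of 12 lymphoid and myeloid markers ran from 204.9 to 220.3 CPM in NeoT, 95.9 to 105.4 in T1, 103 to 108 in CA1 and 70.8 to 75.0 in A10. Most of the NeoT sum came from CD68 at 159 CPM and CD14 at 53.5 CPM. Of 5 tested genes of this list, 2 rose (CD68 and CD79A) and 2 fell (ITGAM and CD14) in NeoT against A10 (edgeR). ITGAM was also lower in NeoT than in T1 and CA1 (edgeR adjusted p = 0.000321 and 1.62e-05), as the members were. The sum of 6 endothelial markers ran from 2.59 to 3.53 CPM in NeoT, 82.9 to 90.6 in T1, 23.7 to 25.0 in CA1 and 7.34 to 10.75 in A10, mostly PECAM1 in T1. The sum of 8 stromal fibroblast markers ran from 654 to 724 CPM in NeoT, 52.9 to 55.6 in T1, 9.01 to 11.3 in CA1 and 270.4 to 277 in A10, of which DCN made 632 CPM in NeoT. Of 7 tested genes of this list, 1 rose and 3 fell in NeoT against A10 (edgeR), with a median log2 change of -0.55. All genes tested gave 33.7% higher and 36.7% lower. DCN rose, and POSTN, FAP and C1S fell, but the call of C1S was lost without some single libraries. The endothelial sum had the order of MACC1, T1 above CA1 above A10 above NeoT, and the part of these markers in the members' levels was not tested.

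Most genes beside the members on the chromosome kept counts in NeoT. Within 250 kb of a member lay 34 protein-coding genes, of which 33 had a row and 25 were tested, and 2 of the 25, S1PR5 and TMPRSS4, had 0 counts in NeoT. Between NeoT and A10, 9 of these were lower, 9 were higher and 7 were not called, with a median log2 change of 0.07, beside 36.7% of all genes lower and 33.7% higher. Around AP1M2 3 of 15 tested neighbours fell and 5 rose. SLC44A2, a choline transporter gene 15.1 kb away, rose 2.64-fold (48.6 ± 4.8 CPM in NeoT, 18.4 ± 1.46 CPM in A10, edgeR adjusted p = 2.41e-11), and the nearest, CDKN2D at 3.69 kb, averaged 4.56 CPM in NeoT and 3.45 CPM in A10 (edgeR adjusted p = 0.207). S1PR5, 54.7 kb away, had 0 counts in NeoT but only 0.774 CPM in A10.

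Beside DAPP1, 2 of 3 tested neighbours fell and 1 rose. LAMTOR3 at 6.0 kb fell 1.53-fold (21.4 ± 3.05 against 32.5 ± 4.73 CPM), and the histone gene H2AZ1, listed as H2AFZ, fell 2.92-fold. DNAJB14 at 23.9 kb rose 1.27-fold (edgeR adjusted p = 0.00881). Beside MACC1, the only neighbour in the window was the integrin gene ITGB8 at 112 kb, which rose 1.42-fold (90.8 ± 17.0 CPM in NeoT, 63.8 ± 5.25 CPM in A10, edgeR adjusted p = 0.000224). Around MPZL2 4 of 6 tested neighbours fell and 2 rose. MPZL3, its relative 1.05 kb away, fell 1.92-fold as given above. The protease gene TMPRSS4, 128 kb away, had 0 counts in NeoT against 4.41 CPM in T1, 121 CPM in CA1 and 2.48 CPM in A10. It was thus at least 52.3-fold lower in NeoT than in its parent. All 4 members lie on different chromosomes, so no 2 of them share a neighbourhood.

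**Figure D5:**
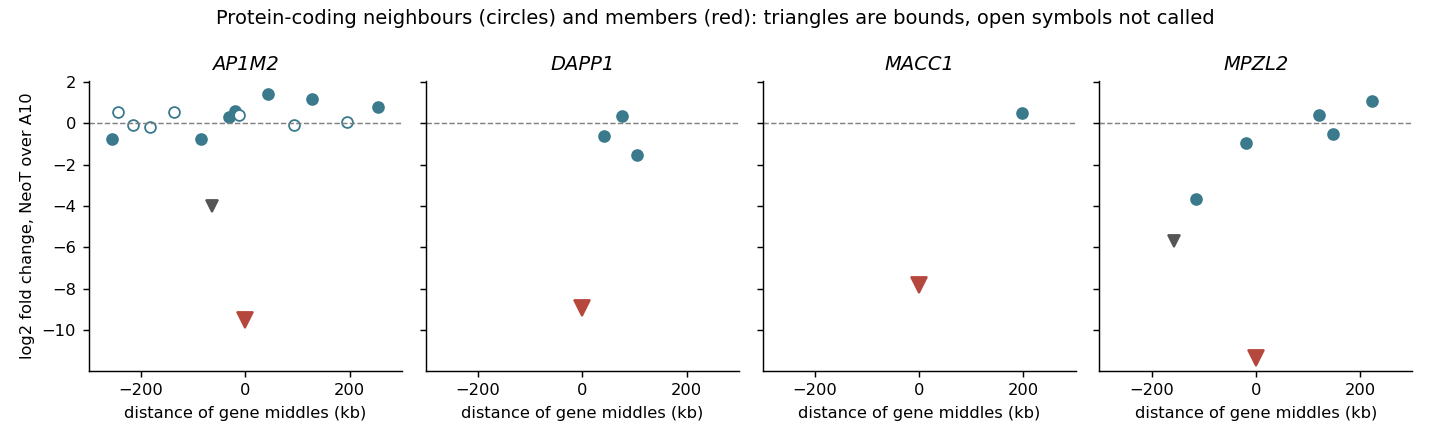
Log2 fold change in NeoT over A10 of tested protein-coding neighbours within 250 kb of each member, against the distance between gene middles in kb; red triangles are the bounds of the members, dark triangles those of neighbours with 0 counts in NeoT, and open circles were not called. The members, chosen for their absence in NeoT, lie lowest in each panel, and ITGB8 beside MACC1 lies above 0.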

How the data were processed

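RNA-seq libraries were made from DNase I-treated total RNA with an NEBNext Ultra kit, per the labels' protocols. The authors deposited 1 table of Salmon gene-level expected counts, not scaled between libraries; 10.1% of values were not whole, and all were rounded, by at most 0.5. GRCh38 and limma are listed, with no role, per the submitters' processing notes. Strand use and software versions are not given in the sources used here. Genes were filtered with filterByExpr (14417 kept), scaled by TMM and fitted with edgeR 4.0.16 (R 4.3.3) in a quasi-likelihood model with a mean per line over all 12 libraries. Genes with a Benjamini-Hochberg adjusted p under 0.05 were called. The SE and the 95% interval of a fold were derived from the F statistic. Limits for 0 counts (3 counts over a line) cover counting error only. Likeness is Pearson's r of log2 CPM (prior count 2). Positions, neighbours and promoters come from RefSeq GRCh38.p14; 23101 rows matched by symbol and 1853 by synonym. The model was tested on simulated data.

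The members and the 13 gene lists were chosen with earlier results of these data known. The genes named were the members, genes meeting the rule, up to 5 with 1 to 3 NeoT counts, up to 4 per list with the smallest adjusted p in a comparison, the 5 most alike per member and neighbours within 250 kb; AP1M1, MET and PLEKHA1 in NeoT, CD79B, and PTPRC, MS4A1, BTK and HGF for their absence were picked with their values known. Some genes this rule names are not reported here. Alternatives tried were RLE factors, no filter, at least 1 CPM in 3 libraries, limma-voom (3.58.1), DESeq2 1.42.0, a fit to the compared libraries alone, a replicate block, no cytoplasmic rRNA rows and each library left out. The fit without both T1 replicate 1 and NeoT replicate 3 was chosen after seeing the data.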

Additional observations from a re-analysis of the deposited data

How the results depend on the processing

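The calls and directions of the 4 members in T1 against A10, CA1 against A10 and CA1 against T1 held under every alternative fit run. DAPP1 in T1 over A10 ranged from 0.49 to 0.60 on the log2 scale with an adjusted p of at most 0.00279. The differences that missed the threshold missed it throughout, with adjusted p from 0.371 to 0.795 for DAPP1 in CA1 against A10, 0.239 to 0.785 for AP1M2 and 0.0791 to 0.593 for MPZL2 in CA1 against T1. The rule was met by 19 genes with a floor of 5 CPM, by 19 with up to 3 counts in NeoT, by 11 with the floor asked of every library, and by 12 to 16 with a library left out (16 without NeoT replicate 1); all 4 members were kept each time. With CPM on library totals, AP1M2 moved to 147.7 CPM in T1 and 132.7 in CA1, DAPP1 to 26.1 in A10, MACC1 to 63.4 in T1 and MPZL2 to 135.6 in A10, each by more than 1 SD. RLE factors moved the median of all genes by at most 0.011.

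Counts of called genes stayed within 1.5 times. With a library left out they ran from 9572 to 10367 for NeoT against A10, 6689 to 8459 for T1 against A10, 9670 to 10856 for CA1 against A10 and 8185 to 9773 for CA1 against T1. With the replicate block the counts were 9981, 7269, 10059 and 8799 in the same order, and 9541 for T1 against NeoT and 9443 for CA1 against NeoT. For libraries of different lines, r of their deviations ran from -0.069 to 0.088 with equal replicate numbers and from -0.106 to 0.083 with different numbers. Of 12 libraries, 7 correlated best with their own number, so whether equal numbers pair libraries was not settled. Of the neighbours, ATG4D (adjusted p 0.0823 to 0.155 without A10 replicate 1, NeoT replicate 1 or NeoT replicate 2) and DNAJB14 (0.0514 without A10 replicate 2) lost their calls, and ICAM3 gained one with DESeq2 (0.0427) and without NeoT replicate 2 (0.0221); the cause was not tested. At this depth a member at 0 in NeoT may stand at up to 0.0474 CPM.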
